A study of Callithrix jacchus with 39 samples.

Results

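Naive-like embryonic stem cells (ESCs) of the common marmoset, Callithrix jacchus, were compared with the inner cell mass (ICM) of hatching and hatched blastocysts across all genes. The comparison rested on 12 of the 39 libraries of the study, 6 from naive ESCs and 6 from ICM, with every gene counted by poly(A)+ RNA sequencing. The naive libraries were 3 of the line titled DSY-c2, whose titles carry TgON, and 3 of the line titled N40, whose titles carry TgOFF. The ICM libraries were 3 of the hatching stage and 3 of the hatched stage. Primed ESCs of the same DSY-c2 and N40 lines, titled Tg, with 3 libraries each, and 3 libraries of postimplantation epiblast were used beside them. The labels name no growth medium, feeder layer, age or inserted gene, so reads from a transgene and from the marmoset's own copy cannot be told apart. Cell line and TgON or TgOFF change together between the naive groups, and culture and the naive state change together between ESCs and ICM. None of these can be told apart. Whether replicate libraries stem from different cultures or embryos is not stated either, so each p-value measures a spread that may be only technical.

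The ICM is the inner cell group of the blastocyst. It gives rise to the preimplantation epiblast, from which the body forms, and to primitive endoderm, which lines the blastocoel and builds the yolk sac and a basement membrane, while the trophectoderm around it forms the placenta. Naive ESCs are cultured cells held near the preimplantation epiblast, and primed ESCs resemble the epiblast after implantation. POU5F1, NANOG and SOX2 form the core of the pluripotency network in both states, and factors such as KLF17, TFCP2L1 and ESRRB are typical of the naive state.

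A gene was counted as differing only if the DSY-c2 and the N40 libraries each differed from the ICM in the same direction, with an adjusted p under 0.05 in each by edgeR's quasi-likelihood test. Such genes are called agreed below. Both contrasts used the same 6 ICM libraries, so agreement was a filter and not a second, independent observation. Levels are counts per 1e+06 counts of a library (CPM), and where 3 values stand for 6 libraries they are the lowest, the median and the highest. Differences are log2 of naive over ICM with their standard error, so positive values are higher in naive ESCs.

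The naive libraries held 62.5 to 75.3 M (mega) counts, with 15613 to 16186 genes at 10 counts or more, and the ICM libraries held 48.7 to 54.3 M counts, with 13061 to 14498 such genes. Log2 CPM of replicate libraries correlated with r of 0.993 to 0.998 across genes in the naive groups and 0.949 to 0.964 in the ICM groups, where genes are not independent replicates. In the ICM, 2 libraries stood apart. Hatched replicate 1 had 170.2 CPM of NANOG against 1298 to 2037 in the other 5 ICM libraries, 0.803 CPM of KLF17 against 100 to 194, and the highest summed levels of the trophectoderm and primitive endoderm lists. Hatched replicate 2 had the highest sum of the primed and postimplantation list, 1684 CPM against 295 to 728 in the other 5, and the lowest sum of the naive pluripotency list, 2871 CPM against 3379 to 6808. Named genes whose call changes when either library is left out are given both ways.

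The labelled cell states were checked against marker lists. The summed level of 15 naive pluripotency genes was 3974 to 5804 CPM in naive ESCs and 2871 to 6808 CPM in the ICM, ranges that overlap, against 892 to 1854 CPM in primed ESCs of the same lines and 355 to 412 CPM in epiblast. The sum of 12 primed and postimplantation genes was 813 to 1518 CPM in naive ESCs, 295 to 1684 CPM in ICM, 3116 to 4558 CPM in primed ESCs and 7970 to 8213 CPM in epiblast. The naive range of the first sum lay within that of the ICM. For the second, the overlap rested on hatched replicate 2, without which the ICM reached 728 CPM at most and lay below every naive library. Both sums separated the naive libraries from the primed libraries and epiblast. The ICM libraries also carried markers of the neighbouring tissues, with 1821 to 3203 CPM of 17 primitive endoderm genes at hatching and 4701 to 13920 CPM after hatching, against 563 to 1715 CPM in naive ESCs. The 12 trophectoderm genes summed to 516 to 1763 CPM in ICM and 150.0 to 421 CPM in naive ESCs.

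Of 16536 genes tested, 5659 were agreed, which is 34.2%. They divided into 3248 genes higher in naive ESCs (19.6% of those tested) and 2411 higher in the ICM (14.6%). The size of this excess depended on the low-count filter. With at least 1 CPM in 3 libraries required, 2570 were naive-higher and 2357 ICM-higher, and with no filter 3559 and 2025. The naive-higher genes had the wider gaps, with a median log2 difference of 2.78 and 2112 genes of at least 4-fold, while the ICM-higher genes had a median of -1.70 and 978 of at least 4-fold. The 6 naive and 6 ICM libraries did not overlap for 2804 and 1901 of them. Over all genes tested, libraries did not overlap for 19.9% with naive ESCs higher and 12.9% with the ICM higher, and the median difference was 0.11. Taken by line, 7019 genes (42.4%) differed from the ICM in DSY-c2, 23.7% higher and 18.8% lower, and 7000 (42.3%) in N40, 23.5% higher and 18.8% lower. The agreed genes were 80.6% and 80.8% of these. A further 1354 genes were called in DSY-c2 alone and 1335 in N40 alone, which does not show that the lines differ there. The mean of both lines against the ICM called 8456 genes (51.1%), 27% higher and 24.1% lower. With at least 1 CPM in 3 libraries required, this order turned, with 3543 genes higher and 3711 lower.

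**Figure D1:**
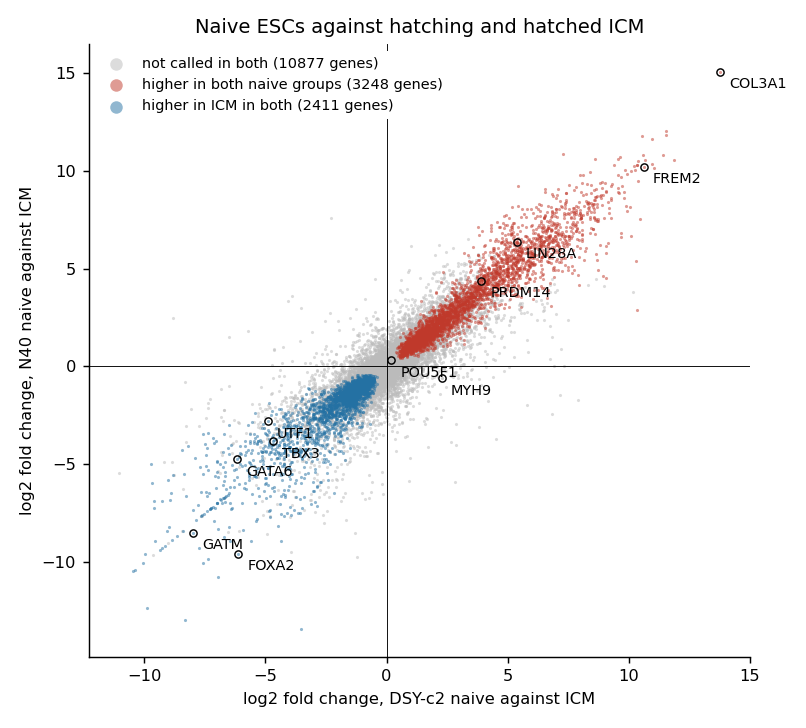
The plot shows the log2 difference between naive ESCs and ICM for each of 16536 genes, DSY-c2 on the x axis and N40 on the y axis, with the 3248 agreed naive-higher and 2411 agreed ICM-higher genes coloured and some named genes labelled. Agreed genes lie in the upper right and lower left, and both axes share the same 6 ICM libraries, which by itself draws points towards the diagonal.

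The direction of the difference moved with the length of the gene. Among named genes, the median span from first to last base in the RefSeq annotation of assembly calJac240_pri was 60.4 kb for naive-higher genes, 17.4 kb for ICM-higher genes and 38.0 kb for the rest. With genes divided by span into 5 bins of nearly equal size, from the shortest to the longest bin, the median log2 difference was -0.48, -0.04, 0.23, 0.45 and 0.89, and the share agreed as naive-higher went from 9.92% to 31.3% while the share agreed as ICM-higher went from 25.4% to 5.17%. Primed ESCs against epiblast showed no such slope, with medians between -0.02 and 0.06 in the same bins. Within single libraries, median log2 CPM of the longest bin minus that of the shortest was -1.88 to -0.89 in the 6 ICM libraries, -0.26 to 0.19 in the naive libraries and 0.37 to 0.46 in epiblast. Every embryo library from morula to hatched blastocyst was at -0.89 or below, so the offset was shared by preimplantation libraries and not particular to the hatching stages. The part of this offset in the results below was not tested. With libraries scaled within each span bin, 3403 genes were agreed, against 3623 of the same genes under one scaling. The sets changed more than these totals. Of 1932 naive-higher and 1471 ICM-higher genes under span-bin scaling, 1763 (91.25%) and 1120 (76.14%) were among the 3248 and 2411 agreed over all genes. Of those 3248 and 2411, 2245 and 1430 had a known span. Lists whose counts this scaling changes are given with both values below or with the alternatives.

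**Figure D2:**
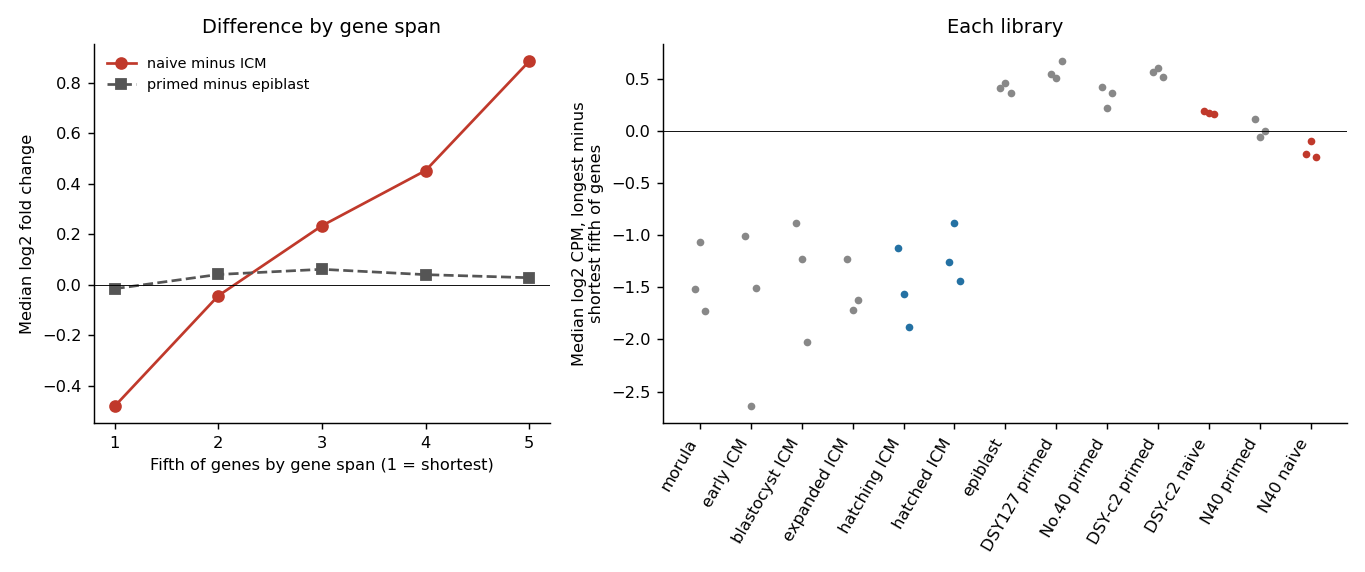
The plot shows, for 5 bins of genes ordered by genomic span, the median log2 difference of naive ESCs against ICM and of primed ESCs against epiblast, and, for each of the 39 libraries by group, the median log2 CPM of the longest minus the shortest bin (points, naive red and hatching and hatched ICM blue). The naive-minus-ICM medians climb from -0.48 to 0.89, whereas the primed-minus-epiblast medians stay between -0.02 and 0.06.

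Naive pluripotency genes of the list differed from the ICM in both directions. Of 15 tested, 4 were higher in naive ESCs in both lines, 2 were higher in the ICM and 9 were not agreed, with a median difference of 0.14 beside 0.11 over all genes and 34.2% of all genes agreed. A gene that was not agreed is not shown to lie at the ICM level. KLF17, a naive-state zinc finger factor, had 70.8, 82.4 and 129 CPM in naive ESCs and 0.803, 108 and 194 CPM in ICM, a difference of -0.28 ± 0.68 (SE), adjusted p = 0.76 by edgeR's quasi-likelihood test. The naive range lay inside the ICM range. KLF4, another reprogramming factor of that family, gave -0.61 ± 0.25, NR5A2, a nuclear receptor, -0.24, and TFCP2L1, a transcription factor of naive self-renewal, 0.14, none of them agreed. TFCP2L1 was at -0.02 without hatched replicate 2 and -0.04 without hatching replicate 3. NLRP7, a maternal-effect gene, had 1832, 2028 and 2225 CPM in naive ESCs and 883, 1343 and 1979 CPM in ICM, and DPPA5, an RNA-binding protein of pluripotent cells, 475, 594 and 711 CPM against 202, 321 and 624 CPM. Neither was agreed, with differences of 0.58 ± 0.19 and 0.64 ± 0.25, but both were when hatched replicate 3 was left out, at 0.76 and 0.94.

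The 2 naive-state genes lower in naive ESCs than in ICM were TBX3 and KLF5. TBX3, a T-box factor with roles in naive self-renewal and in primitive endoderm, had 6.59, 19.7 and 41.9 CPM in naive ESCs and 185, 273 and 1064 CPM in ICM. The groups did not overlap, and the difference was -4.27 ± 0.47, adjusted p = 3.4e-05 by edgeR's quasi-likelihood test. For KLF5, a factor shared with trophectoderm, 115, 149 and 231 CPM stood against 245, 376 and 531 CPM, with a difference of -1.30 ± 0.20 that was no longer agreed without N40 replicate 1 (-1.23). The 4 naive-higher members were PRDM14, ARGFX, IL6ST and ESRRB. PRDM14, a repressor of differentiation in pluripotent and germ cells, had 113, 166 and 202 CPM against 0.379, 5.64 and 30.2 CPM, a difference of 4.13 ± 0.70. ARGFX, which encodes a homeodomain protein of cleavage-stage embryos, was at 20.8, 24.7 and 30.0 CPM in culture and at 0, 0.199 and 3.81 CPM in ICM, which gave 4.78 ± 1.25 and adjusted p = 0.0078 by edgeR's quasi-likelihood test, and 7.27 without hatched replicate 1, where the 3.81 CPM were found. All 6 naive libraries lay above all 6 ICM libraries for both genes. IL6ST, the gp130 receptor subunit that carries the LIF signal, differed by 2.85 ± 0.57, or 3.98 without hatching replicate 1. Neither ARGFX nor IL6ST was agreed against the hatched ICM alone. ESRRB, an orphan nuclear receptor, differed by 1.5 ± 0.28 and was not agreed without N40 replicate 1 (1.47) or replicate 3 (1.51). It also lost its agreement against the hatching ICM alone and when libraries were scaled within span bins.

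Genes of the shared network split in both directions, 3 of 10 higher in naive ESCs and 2 higher in the ICM, or 4 without hatched replicate 1. These counts stand beside 19.6% and 14.6% of all genes. The median of the list was -0.21 on genes with a known span and flipped to 0.31 when libraries were scaled within span bins. POU5F1, the OCT4 gene, had 1096, 1277 and 1425 CPM in naive ESCs and 233, 1000 and 2150 CPM in ICM, with no agreed difference (0.26 ± 0.34, adjusted p = 0.56 by edgeR's quasi-likelihood test). NANOG, its homeobox partner, was at 360.2, 286 and 399 CPM in the 3 DSY-c2 naive libraries, at 855, 792 and 879 CPM in N40, and at 1466 to 2037 CPM at hatching. Its difference from the ICM was -1.35 ± 0.40 and was not agreed, but without hatched replicate 1 it was -1.60 and agreed as ICM-higher. NODAL, a TGF-beta family ligand made by epiblast, changed in the same way, from -0.77 with every library to -1.01 and agreed without hatched replicate 1. SOX2 was higher in naive ESCs at 55.0, 94.0 and 150.3 CPM against 4.42, 25.3 and 36.0 CPM, with a difference of 2.01 ± 0.41. It lost its agreement in the 6 fits that left out a naive library, which gave 1.99 to 2.04, and against the hatching ICM alone.

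The widest gaps of this list were those of LIN28A and UTF1. LIN28A, an RNA-binding protein that blocks maturation of let-7 microRNAs, had 118, 222 and 293 CPM in naive ESCs. In the ICM it had 1.37, 0.322 and 0.621 CPM at hatching and 14.8, 28.7 and 2.14 CPM after hatching, so that all 6 values lay below all naive ones. The difference was 5.87 ± 0.59, adjusted p = 1.8e-05 by edgeR's quasi-likelihood test. Its paralogue LIN28B was higher in naive ESCs as well, by 2.53 ± 0.48, but was not agreed against the hatched ICM alone. UTF1, a chromatin factor of undifferentiated cells, went the other way, with 20.0, 30.0 and 27.3 CPM in DSY-c2, 117, 94.0 and 115 CPM in N40 and 264, 700.1 and 1362 CPM in the ICM. Its difference was -3.85 ± 0.35, adjusted p = 1e-05 by edgeR's quasi-likelihood test. MYC, a growth and reprogramming factor, was at 46.9, 52.6 and 75.2 CPM in naive ESCs and at 84.6, 165 and 471 CPM in the ICM, a difference of -1.84 ± 0.24.

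**Figure D3:**
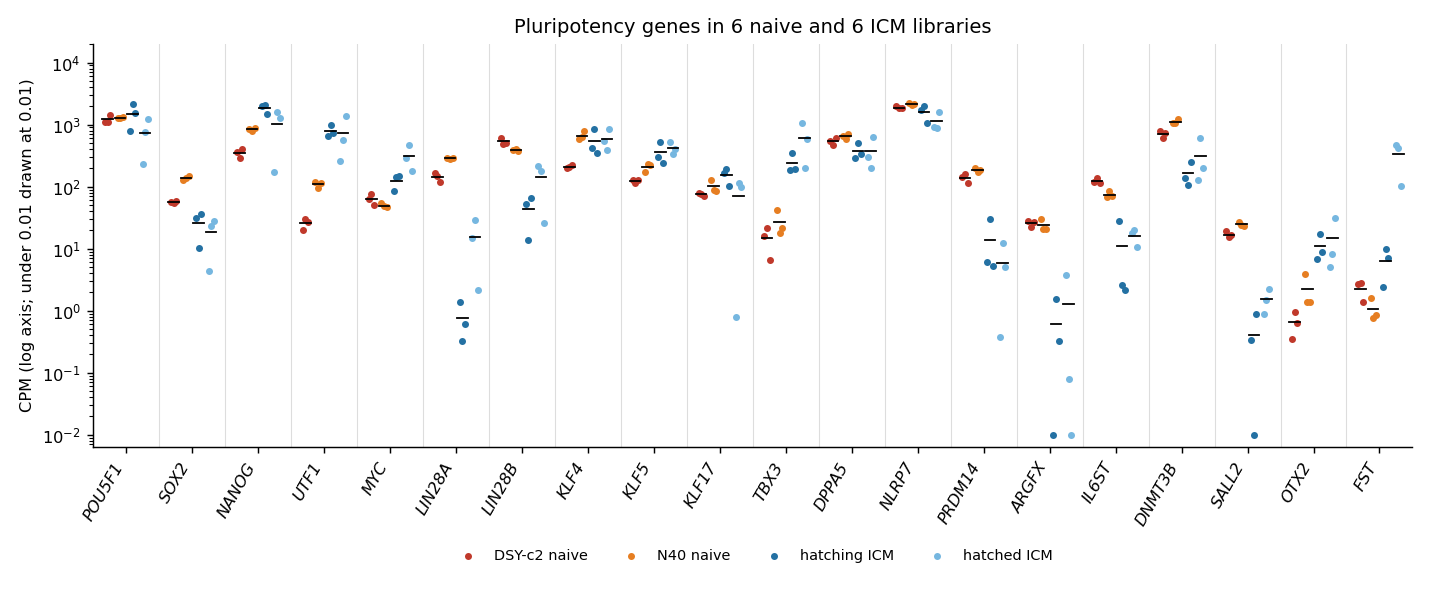
The plot shows CPM on a log axis for 20 genes of the pluripotency and primed lists, with a point for each of the 12 libraries coloured by group, a bar at each group mean and values under 0.01 drawn at 0.01. KLF17 and POU5F1 overlap between the groups, TBX3 and UTF1 are lower in all 6 naive libraries, and LIN28A and PRDM14 are higher in all 6.

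Genes of the primed state did not fall on one side. Of 12 tested, 3 were agreed as naive-higher and 3 as ICM-higher, beside 19.6% and 14.6% of all genes, and the median was 0.28. DNMT3B, a de novo DNA methyltransferase, had 611, 913 and 1218 CPM in naive ESCs and 107, 168 and 617 CPM in ICM, with a difference of 1.96 ± 0.35. It was not agreed against the hatched ICM alone. SALL2, a zinc finger factor, was at 15.2, 21.3 and 26.8 CPM against 0, 0.887 and 2.24 CPM, a difference of 4.68 ± 0.72. SALL2 was lower in primed ESCs than in epiblast, at -1.79. OTX2, a homeobox factor of the transition out of the naive state, was lower in naive ESCs, at 0.354, 1.16 and 3.90 CPM against 5.09, 8.57 and 30.8 CPM, and its difference of -3.40 ± 0.58 was not agreed without N40 replicate 2 or replicate 3 (-3.27 in each). FST, which encodes the activin inhibitor follistatin, differed by -4.90 ± 0.49, with -7.75 against the hatched ICM and -2.05, not agreed, against the hatching ICM alone.

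The primitive endoderm genes that were agreed were all lower in naive ESCs. Of 16 tested, 8 were agreed as ICM-higher and none as naive-higher, beside 14.6% and 19.6% of all genes, and their median was -1.94. In bulk libraries, fewer cells of a type and less RNA per cell cannot be told apart, and this holds for every difference given here. GATA6, the factor that starts the primitive endoderm programme, had 6.31, 15 and 3.54 CPM in DSY-c2, 35.5, 15.5 and 16.1 CPM in N40, 295, 1044 and 277 CPM at hatching and 574, 260.4 and 1145 CPM after hatching. Every naive library was below every ICM library, and the difference was -5.47 ± 0.59, adjusted p = 2.9e-05 by edgeR's quasi-likelihood test. PDGFRA, the receptor that marks these cells, was at 6.44, 12.9 and 42.1 CPM in naive ESCs and at 150.0, 525 and 977 CPM in ICM (-5.24 ± 0.48). FOXA2, a pioneer factor of endoderm, was at 0, 0.428 and 1.56 CPM against 21.5, 77.9 and 181 CPM (-7.85 ± 0.64). No overlap was seen for either gene.

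Among laminin, nidogen and collagen IV genes, NID1, NID2 and LAMA1 were lower in naive ESCs. NID2, a nidogen that links laminin to collagen, had 31.9, 44.7 and 53.5 CPM in naive ESCs and 154, 426 and 1317 CPM in ICM (-3.42 ± 0.33), and NID1 differed by -3.76 ± 0.28. LAMA1, a laminin chain, was at 4.93, 28.3 and 123 CPM against 124, 253 and 2261 CPM, the last in hatched replicate 1, and differed by -4.09 ± 0.48, with -5.58 against the hatched ICM and -2.61, not agreed, against the hatching ICM alone. COL4A1 and LAMB1, a collagen IV and a laminin chain, had mean differences of -2.05 and -1.83, which were agreed only without hatched replicate 3 (-2.19 and -2.01) among the fits that left out 1 library. APOA1, the main apolipoprotein of high-density lipoprotein and a yolk sac product, ranged from 16.2 to 3029 CPM in the ICM, and its difference of -5.59 ± 0.91 was not agreed without DSY-c2 replicate 1 (-5.39) or replicate 3 (-5.57). Without hatched replicate 1, which held the 3029 CPM, it was -4.05. APOA1 was not agreed against the hatching ICM alone, nor with all 5 ICM stages from early to hatched blastocyst as the reference. GATA4, a partner of GATA6, differed by -0.75 and lost its agreement in 8 of 12 fits that left out a library. HNF4A and APOB of this list had positive differences. HNF4A, a hepatic and visceral endoderm receptor, had 51.5 to 151 CPM in naive ESCs and 27.0 to 86.4 CPM in the ICM, and was not agreed at 0.74. APOB had the highest difference of the list, 3.18, which was not agreed either. With all 39 libraries in the fit or all 5 ICM stages as the reference, APOB was agreed as naive-higher. Without hatched replicate 1, which had the highest sum of the list, 8 of 16 genes were still agreed and the median was -1.65. Scaled within span bins, 11 were agreed, against 8 of the same genes under one scaling.

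Of 11 trophectoderm genes tested, 1 was agreed as ICM-higher and none as naive-higher, beside 14.6% and 19.6% of all genes. The list is too short to read against these shares. Its median was -1.84, or -1.18 without hatched replicate 1. The 1 gene was KRT7, a keratin of simple epithelia, with 6.41, 63.5 and 98.5 CPM in naive ESCs and 122, 311 and 438 CPM in the ICM (-2.36 ± 0.53). It was not agreed without DSY-c2 replicate 1 (-2.47) or N40 replicates 1, 2 or 3 (-2.40, -2.25 and -2.41). GATA2, a trophoblast transcription factor, had 4.35 to 70.1 CPM in naive ESCs and 12.1 to 1150 CPM in the ICM, with the top value in hatched replicate 1, and was not agreed at -2.97. CDX2, which fixes the trophectoderm fate, was at 0.254 to 1.5 CPM in naive ESCs and 0.0919 to 7.12 CPM in the ICM.

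BAMBI and SP5, which respond to signalling pathways of early embryos, were lower in naive ESCs. BAMBI, a decoy receptor for BMP and activin, had 2.45, 5.94 and 11 CPM in naive ESCs and 20.2, 45.6 and 321 CPM in the ICM (-3.89 ± 0.57). SP5, a direct target of WNT signalling, differed by -4.57 ± 0.45. The groups did not overlap for either gene. BAMBI was among the 2 of 4 NODAL and BMP response genes agreed as ICM-higher, and SP5 was the 1 of 6 WNT response genes. Lists of 4 and 6 genes are too short to read against the 14.6% of all genes. When all 5 ICM stages from early to hatched blastocyst formed the reference, neither was agreed, at -2.94 for SP5 and -3.03 for BAMBI.

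The largest gaps among ICM-higher genes at 10 CPM or more and with no overlap fell on genes with little expression in either naive line. A ranking by log2 difference favours such genes. GATM, the first enzyme of creatine synthesis, had 0.275, 0.705 and 1.03 CPM in naive ESCs and 22.3, 266 and 1205 CPM in the ICM, a difference of -8.25 ± 0.65. SOD3, an extracellular superoxide dismutase, was at 0.175, 0.653 and 1.64 CPM against 54.2, 110.2 and 341 CPM (-7.65 ± 0.57). ABCB4, a phospholipid transporter of the hepatocyte membrane, was at 1.96, 2.35 and 6.93 CPM against 163, 226 and 717 CPM (-6.47 ± 0.49). No overlap between the naive and ICM libraries was a condition for naming genes by the size of their gap, so it is no result about them. APOBEC2, a member of the cytidine deaminase family, differed by -7.52 ± 0.50, and NOSTRIN, which binds endothelial nitric oxide synthase, by -6.07 ± 0.40. NRG2, a ligand of the ERBB receptors, differed by -6.81 ± 0.68 and ELOVL7, a fatty acid elongase, by -5.88 ± 0.59. GTSF1 and FKBP6, both needed in the piRNA pathway of germ cells, were lower by -6.28 ± 0.63 and -7.90 ± 0.84, and MAEL of the same pathway by -2.20 ± 0.31. TMEM74, which acts in autophagy, differed by -6.46. SSX4B differed by -9.78 ± 1.15, but SSX genes are near-identical copies among which reads can be split, so the value is uncertain.

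Abundant genes with the largest loss in CPM included membrane and cytoskeleton genes. ANXA2, an annexin that binds membranes and actin, had 208, 246 and 332 CPM in naive ESCs and 607, 1317 and 4942 CPM in the ICM (-2.69 ± 0.35). TAGLN2, an actin-binding protein, was at 119.7, 134 and 177 CPM against 778, 1659 and 2135 CPM (-3.49 ± 0.25, adjusted p from edgeR's quasi-likelihood test 2.2e-07). NHERF1, a scaffold under the apical membrane of epithelia, differed by -2.89 ± 0.30 and FSCN1, which bundles actin, by -2.58 ± 0.26. Of 17 cytoskeleton and mesenchymal genes, 7 were agreed as ICM-higher and 3 as naive-higher, beside 14.6% and 19.6% of all genes, with a median of -1.07. VIM, the intermediate filament vimentin, had 8.30, 15 and 30.5 CPM in naive ESCs and 28.4, 304 and 1593 CPM in the ICM, so these groups overlapped. EPCAM, an adhesion molecule of epithelia, was higher in every ICM library, 1399, 1783 and 2237 CPM against 424, 516 and 588 CPM (-1.85 ± 0.16).

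A pair of cathepsins and 3 oxidative stress genes were also lower in culture. CTSL1, a lysosomal protease, had 202, 341 and 500.0 CPM in naive ESCs and 959.8, 1165 and 2136 CPM in the ICM (-2.02 ± 0.19), and CTSD, another cathepsin, differed by -2.19 ± 0.24. HMOX1, the heme oxygenase induced by oxidative stress, was at 14.7, 46.7 and 111 CPM against 211, 376 and 975 CPM (-3.27 ± 0.30). GCLM, a subunit of the enzyme that limits glutathione synthesis, differed by -2.29 ± 0.37 and GPX3, a secreted glutathione peroxidase, by -2.51 ± 0.31. These were the 3 of 10 metallothionein and oxidative stress genes agreed as ICM-higher, with 1 naive-higher, beside 14.6% and 19.6% of all genes. EGLN3, an oxygen-sensing prolyl hydroxylase, had 31.5, 59.0 and 84.5 CPM in naive ESCs and 149, 579 and 1103 CPM in the ICM (-3.43 ± 0.36). Of 13 hypoxia response genes, 2 were agreed as ICM-higher and 1 as naive-higher, near the 14.6% of all genes for the first and below 19.6% for the second.

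**Figure D4:**
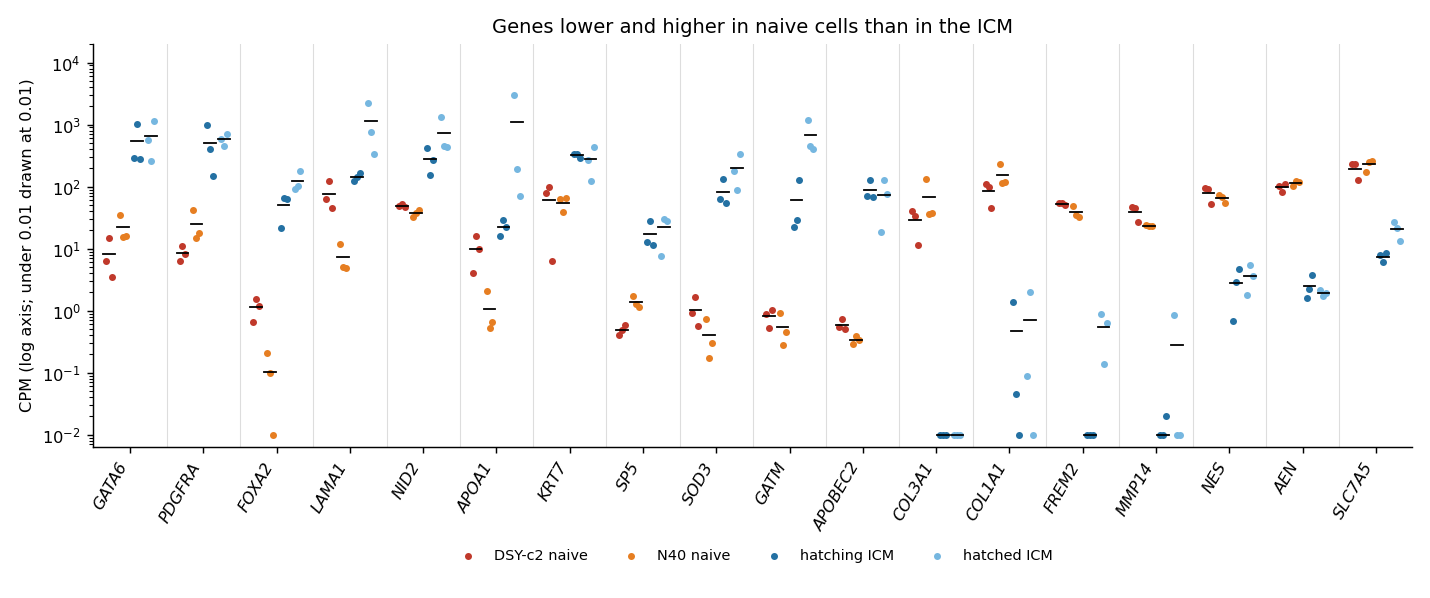
The plot shows CPM on a log axis in each of the 12 libraries for 11 genes higher in the ICM and 7 higher in naive ESCs in both lines, with a bar at each group mean and values under 0.01 drawn at 0.01. GATA6, FOXA2 and GATM are lower in all 6 naive libraries, and COL3A1, NES and AEN are higher in all 6.

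The stromal fibroblast list had the highest median of the 40 lists. Of its 10 genes tested, 7 were agreed as naive-higher and none as ICM-higher, beside 19.6% and 14.6% of all genes. The other 3 were not agreed, and the lowest difference of the list was -1.49. The median of the list was 7.45, or 6.37 with genes that had no ICM count set at their lower bound. COL3A1, a collagen of loose connective tissue, had 40.3, 34.0 and 11.3 CPM in DSY-c2 and 134, 36.0 and 37.3 CPM in N40 and no count in any ICM library, which is at least 4776-fold higher against a floor of 3 counts over the ICM group. The bound covers counting error only. COL1A1, the main collagen of bone and skin, was at 44.7, 112 and 234 CPM against 0, 0.0676 and 2.03 CPM (7.59 ± 1.20), and COL5A2, a collagen of the same fibrils from the matrix list, at 2.62, 7.98 and 20.7 CPM against at most 0.0460 CPM. POSTN, a matrix protein of fibroblasts, was at least 126-fold higher but reached only 0.5 to 2.49 CPM. PDGFRB, a receptor of mesenchymal cells, stayed at 0.644 to 1.66 CPM in naive ESCs, 172 times the ICM level with a counting interval of 47.5 to 1418. The summed level of the list was 92.1 to 468 CPM in naive ESCs, 38.4 to 154 CPM in the ICM, 459 to 1270 CPM in primed ESCs and 1680 to 1882 CPM in epiblast. Whether another cell type contributed to these counts was not tested.

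The primed and epiblast libraries did not share a single pattern for these collagens. Against epiblast, primed ESCs were lower for COL3A1 (-7.84), for POSTN (-7.20) and for COL5A1 (-1.87) and higher for COL1A1 (1.80). COL3A1 averaged 258 CPM in epiblast, 3.10 CPM in primed DSY-c2 and 0.343 CPM in primed N40, below the naive libraries of both lines. In naive ESCs COL5A1 had 17.3, 18.7 and 19.8 CPM against 0.481, 2.19 and 5.20 CPM in the ICM (2.90 ± 0.46). Extracellular matrix and integrin genes as a whole divided into 7 naive-higher and 5 ICM-higher of 28, beside 19.6% and 14.6% of all genes. Their median was -0.61, or 0.11 in a limma fit with a weight per group.

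Several genes of embryonic basement membranes and matrix remodelling were added. FREM2 and FRAS1, partners in one basement membrane complex, had 33.0, 49.5 and 55.1 CPM and 9.51, 12.2 and 16.8 CPM in naive ESCs and at most 0.892 and 1.22 CPM in the ICM, with differences of 10.41 ± 0.62 and 8.74 ± 1.18. MMP14, a membrane-bound metalloproteinase, was at 23.2, 25.3 and 46.8 CPM against at most 0.848 CPM (9.25 ± 1.18). HSPG2, the basement membrane proteoglycan perlecan, was at 685, 1193 and 1647 CPM against 188, 265 and 339.9 CPM (2.08 ± 0.18). None of the 6 naive libraries fell within the ICM range for these 4 genes, which was a condition for any gene named by the size of its gap. GPNMB, a glycoprotein of lysosomes and the cell surface, was at 22.1, 33.2 and 66.1 CPM in naive ESCs and differed by 9.36 ± 1.72, but was not agreed against the hatched ICM alone. Hatched replicate 1 had 4.37 CPM of it and 0.848 CPM of MMP14, and without this library the fitted differences were 14.15 and 12.84. ADGRG2, an adhesion receptor, and CNTN6, a contactin of neural cells, had 8.99 to 24.2 CPM and 7.80 to 17.1 CPM in naive ESCs and almost no ICM count, which gave ratios of 2174 (counting interval 602 to 17955) and 1882 (521 to 15539).

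Another set of added genes was near 0 in every embryo stage of the study, from morula to epiblast. TAF15, an RNA-binding protein of the FET family, had 128, 157 and 203 CPM in naive ESCs, 0.0375, 0.296 and 1.28 CPM in the ICM and a mean of 0.548 CPM in epiblast. Its naive-minus-ICM difference was 8.37 ± 0.78 and its primed-minus-epiblast difference was 8.36 ± 0.22. ZNF445, a zinc finger protein that guards imprints, gave 10.31 ± 0.82 and 8.86 ± 0.53, and MYADM, a membrane raft protein, 8.56 ± 0.70 and 7.28 ± 0.55. For PIP5K1C, a phosphoinositide kinase, the values were 8.55 ± 0.90 and 5.33 ± 0.40, and for NYAP1, an adaptor of neural PI3-kinase signalling, 8.44 ± 1.43 and 3.47 ± 0.32. The primed and epiblast libraries are other samples than those that called these genes, but the primed libraries are of the same DSY-c2 and N40 lines. A trait of these lines would thus recur in both comparisons. The highest stage mean of these 5 genes was 2.03 CPM, that of PIP5K1C in the blastocyst ICM.

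AEN, SLC7A5 and NES were added in both lines. AEN, a nuclease induced by p53, had 83.4, 106 and 122 CPM in naive ESCs and 1.57, 2.04 and 3.81 CPM in the ICM, with a difference of 5.56 ± 0.25, adjusted p = 2.1e-07 by edgeR's quasi-likelihood test. Of 8 p53 response genes, 4 were agreed as naive-higher and 1, TP53I3, an oxidoreductase, as ICM-higher (-2.52 ± 0.36), beside 19.6% and 14.6% of all genes. With size factors of DESeq2 or upper-quartile scaling, 3 were naive-higher. A member of the 4 lost its agreement in 10 of 12 fits that left out a library, and another in 9 of 12. SESN2, a sestrin that restrains mTORC1, differed by 1.59 ± 0.22. SLC7A5, the large neutral amino acid transporter, was at 129, 229.7 and 263 CPM against 6.02, 10.8 and 26.8 CPM (4.08 ± 0.25), while its heavy chain SLC3A2 was higher in the ICM, at 871, 1371 and 2378 CPM against 265, 389.7 and 556 CPM (-1.91 ± 0.17). NES, the intermediate filament nestin, was at 52.4, 70.8 and 93.7 CPM against 0.675, 3.27 and 5.40 CPM (4.49 ± 0.47). Primed ESCs were higher than epiblast for AEN, SLC7A5 and NES as well, by 3.85, 5.47 and 7.29.

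DST, FLNA and members of the YAP response and epithelial junction lists were added too. DST, which ties intermediate filaments to junctions, had 575, 719.5 and 957 CPM in naive ESCs and 27.2, 69.9 and 139.7 CPM in the ICM (3.23 ± 0.27), and FLNA, an actin cross-linker, differed by 3.89 ± 0.54. Of 11 YAP response genes, 5 were agreed as naive-higher and none as ICM-higher, beside 19.6% and 14.6% of all genes. Among the 5 were AMOTL1, a junction protein that holds YAP (4.53 ± 0.47), and TEAD1, the DNA-binding partner of YAP (2.11 ± 0.31). Of 14 epithelial junction genes, 5 were naive-higher and 3 ICM-higher, beside 19.6% and 14.6% of all genes. The 5 included DSG2, a desmosomal cadherin (2.24 ± 0.36), TJP1, a tight junction scaffold (1.91 ± 0.23), and GRHL2, an epithelial transcription factor (2.83 ± 0.37). ERBB3, a neuregulin receptor, was at 539, 844 and 1142 CPM against 22.5, 125 and 153 CPM (2.88 ± 0.35), and in primed ESCs it was lower than in epiblast (-1.09). PECAM1, an adhesion molecule of endothelium and pluripotent cells, was at 910.0, 1096 and 1241 CPM against 186, 292 and 507 CPM (1.84 ± 0.20). DST, ERBB3 and PECAM1 did not overlap between the groups, which was a condition for any gene named by the size of its gap.

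SRRM2, MDN1 and PDIA3 were among the abundant genes with the largest gain in CPM. SRRM2, a splicing cofactor, had 1376, 1472 and 1570 CPM in naive ESCs and 82.7, 144 and 225 CPM in the ICM, with a difference of 3.35 ± 0.22. MDN1, a ribosome assembly ATPase, differed by 2.62 ± 0.21 and PDIA3, a disulfide isomerase of the endoplasmic reticulum, by 2.12 ± 0.25. All 3 were higher in primed ESCs than in epiblast as well, by 2.61, 1.32 and 2.86. Of 17 glycolysis genes, 6 were agreed as naive-higher and 1 as ICM-higher, beside 19.6% and 14.6% of all genes, with a median of 0.40. HK1, a hexokinase, had 252, 351 and 442 CPM in naive ESCs and 61.4, 77.4 and 147 CPM in the ICM (2.01 ± 0.22), GPI, the second enzyme of glycolysis, differed by 1.63 ± 0.15 and ENO1, an enolase, by 1.62 ± 0.26. Imprinted genes gave 3 naive-higher and 1 ICM-higher of 11, beside the same shares of all genes. PEG3, a paternally expressed zinc finger gene, was at 157, 290.4 and 475 CPM against 22.5, 35.4 and 86.3 CPM (2.74 ± 0.28), and SNURF, from the paternal transcript of the SNRPN locus, differed by 1.59 ± 0.21.

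Cell cycle genes were found on both sides, in shares near the 19.6% and 14.6% of all genes. Of 22 genes acting from G1 to S, 4 were agreed as naive-higher and 5 as ICM-higher, and of 16 mitosis genes 4 and 3. CDT1, which loads the replicative helicase, had 76.7, 116 and 145 CPM in naive ESCs and 296, 649.9 and 1087 CPM in the ICM (-2.63 ± 0.32), CCNE1, cyclin E, differed by -1.47 ± 0.20 and PCNA, the replication clamp, by -1.41 ± 0.19. In the opposite direction CDC6, CDT1's partner in loading, was higher in naive ESCs by 1.67 ± 0.24 and CCND2, a D-type cyclin, by 5.38 ± 0.98, though at only 2.10 to 4.51 CPM. TOP2A, the mitotic topoisomerase, differed by 1.5 ± 0.18 and CDC20, an activator of the anaphase-promoting complex, by -1.40 ± 0.23. CDC20 was no longer agreed when libraries were scaled within span bins. For the G1 to S list the median moved from -0.47 among genes with a known span to 0.03 when libraries were scaled within span bins.

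Primed ESCs were set against epiblast in other libraries of the study, which asks how far the differences of naive ESCs from the ICM are those of cultured cells from embryo cells in general. That comparison tested 16941 genes and called 64.8%, 34.3% higher and 30.5% lower in primed ESCs. Of 3121 naive-higher genes tested there, 1912 (61.3%) were higher in primed ESCs and 371 (11.9%) lower, with a median of 1.12. Of 2265 ICM-higher genes, 1162 (51.3%) were lower in primed ESCs and 441 (19.5%) higher, with a median of -0.49. Over the 15621 genes tested in both, 34.7% were higher and 30.9% lower and the median was 0.09. The same direction was thus more common than over all genes for both sets. Cultured and embryo libraries differ in source in both comparisons, so culture, source and state cannot be told apart here.

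Lineage and pluripotency lists in primed ESCs against epiblast gave the following counts. Of 16 primitive endoderm genes, 15 were lower in primed ESCs than in epiblast and none was higher, with a median of -2.62. Naive pluripotency genes were mostly higher, 10 of 15 against 2 lower, with a median of 1.70, and primed genes mostly lower, 8 of 12 against 1 higher, with a median of -1.22. GATA6 differed by -5.52 and FOXA2 by -5.77, beside -5.47 and -7.85 in naive ESCs against the ICM. For LAMA1 the values were -0.81 and -4.09. NID1 was higher in primed ESCs than in epiblast (1.27), HMOX1 was too (3.84), and both were lower in naive ESCs than in the ICM.

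Ribosomal protein, proteasome and respiratory chain genes took different values in the comparisons. Of 21 cytosolic ribosomal protein genes, 20 were higher in primed ESCs than in epiblast with a median of 1.84. Against the ICM 2 were naive-higher and 7 ICM-higher, beside 19.6% and 14.6% of all genes, with a median of -0.58. RPLP0, of the ribosomal stalk, had 2221, 2338 and 2920 CPM in naive ESCs and 5494, 8004 and 10603 CPM in the ICM (-1.74 ± 0.20), with a primed-minus-epiblast value of 0.12. RPL30 of the large subunit gave 1.18 ± 0.24 and 3.44. RPS27 and RPS15A were the widest naive-higher members, at 2.72 ± 0.26 and 2.39 ± 0.21, and ribosomal protein genes have many near-identical pseudogenes, so single members are uncertain. On genes with a known span the list gave 2 naive-higher and 8 ICM-higher with a median of -0.70, and this flipped to 7 and 3 with a median of 0.02 when libraries were scaled within span bins. Its direction against the ICM thus depended on the scaling.

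Of 18 proteasome genes tested, none was naive-higher and 4 were ICM-higher, beside 19.6% and 14.6% of all genes, with a median of -0.33. In primed ESCs against epiblast 17 of 19 were higher and 1 lower, with a median of 1.63. PSMA7, a core subunit, had 165, 176 and 199.9 CPM in naive ESCs and 226, 349 and 503 CPM in the ICM, with no overlap. It gave -0.97 ± 0.15 against the ICM and 1.59 ± 0.10 in primed ESCs against epiblast, and PSMC3, an ATPase of the cap, -1.04 ± 0.18 and 1.47 ± 0.09. Scaled within span bins, 1 proteasome gene was naive-higher and 2 ICM-higher, against 0 and 6 under one scaling, and neither PSMA7 nor PSMC3 was agreed. Of 20 respiratory chain and ATP synthase genes, 4 were naive-higher and 6 ICM-higher, beside the same shares of all genes, with a median of -0.17. In primed ESCs 14 were higher and 2 lower, with a median of 1.10. CYC1, cytochrome c1 of complex III, gave -1.32 ± 0.19 and 0.64 and NDUFB3, a subunit of complex I, 1.80 ± 0.26 and 4.44.

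The difference between both comparisons was tested in one model over 21 libraries, naive minus ICM against primed minus epiblast. It called 7122 of 18164 genes (39.2%), 3662 (20.2%) with the naive contrast the more positive and 3460 (19%) with it the more negative. All 21 ribosomal protein genes, 17 of 19 proteasome genes and 17 of 20 respiratory genes were called as more negative. Since this model reuses the libraries of both comparisons, these counts are no separate support for either. Among the stromal genes, 6 of 10 were called as more positive and 1 as more negative, and among glycolysis genes 9 of 17 and 1.

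**Figure D5:**
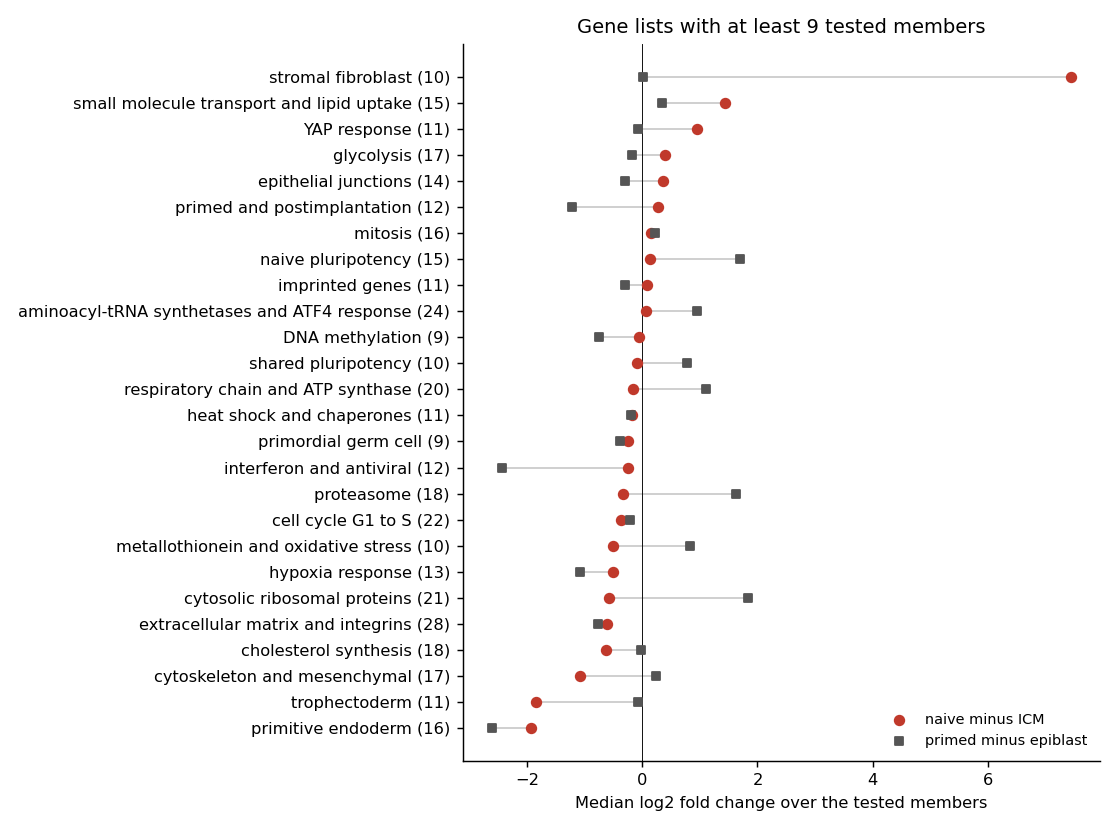
The plot shows, for each gene list with at least 9 tested members (their number in brackets), the median log2 difference of naive ESCs against ICM (circles) and of primed ESCs against epiblast (squares). Ribosomal and proteasome lists lie below 0 for naive against ICM (-0.58 and -0.33) and well above 0 for primed against epiblast (1.84 and 1.63), the first flips to 0.02 when libraries are scaled within span bins, and the primitive endoderm list is negative in both.

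The naive lines were opposite to each other against the ICM in only 6 genes, of which MYH9 alone had a symbol. MYH9, the heavy chain of non-muscle myosin IIA, averaged 765 CPM in DSY-c2, 102 CPM in N40, 155 CPM at hatching and 154 CPM after hatching. It was higher than the ICM in DSY-c2 (2.29, adjusted p = 6.6e-06) and lower in N40 (-0.62, adjusted p = 0.02), both by edgeR's quasi-likelihood test. In primed ESCs it averaged 843 CPM in DSY-c2 and 77.0 CPM in N40, the same order.

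Few genes were called between the 2 ICM stages in the fit of 12 libraries, which does not show that the stages are alike. Hatched against hatching ICM called 63 of 16536 genes (0.381%), 53 higher (0.321%) and 10 lower (0.0605%) after hatching, with 2799 genes at an unadjusted p under 0.05 by edgeR's quasi-likelihood test. The naive libraries vary less than the ICM libraries and shared in that estimate of spread. With the 6 ICM libraries fitted alone 0 of 13855 genes were called (646 at an unadjusted p under 0.05), and a limma fit with a weight per group called 0 (976 unadjusted), whereas DESeq2 called 1334 (3168 unadjusted). LIN28A, FST, GATA4 and FREM2 were among the 63. FST had at most 9.84 CPM in the 3 hatching libraries and 104 to 476 CPM in the hatched ones (5.70 ± 0.72), and GATA4 had 15.3 to 21.1 CPM and 47.5 to 52.9 CPM (1.46 ± 0.24).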

How the data were processed

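Gene counts from poly(A)+ libraries were analysed as raw counts per gene with 30811 gene IDs and 2 run columns per library, as deposited. Total RNA was taken with the RNeasy Mini kit and made into libraries with TruSeq Stranded mRNA LT, per the labels' protocols. The authors' counts came from Trim Galore 0.4.0, STAR 2.5.3a and featureCounts 1.5.2, per the submitters' processing notes, with genome build and annotation not given in the sources used here. Another 6 columns were not used. Counts of mates of a pair appeared to be taken separately, since even values were in excess among low counts, so counting intervals and floors are optimistic.

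The 2 columns were summed. Symbols were matched by gene ID for 12660 IDs (41.1%). Each of the 12 naive and ICM libraries held 48.7 M counts or more, and standard errors include the spread between libraries. The 12 naive and ICM libraries were fitted with the quasi-likelihood test of edgeR 4.0.16 in R 4.3.3 (filterByExpr, TMM), as were the 9 primed and epiblast libraries and all 21 for the difference, with Benjamini-Hochberg adjustment at 0.05 over all genes tested. The scripts were tested on simulated counts with 100 genes changed 2-fold and 100 changed 4-fold in both naive groups. Of these, 1% and 33% were agreed, with 0 false calls, so a gene that is not agreed may still differ. Far more genes were agreed in the data than were changed in the simulation, so these shares need not hold for the data. The members and the 40 gene lists were chosen with earlier results of these data known.

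Named genes were the 12 largest each way by the smaller log2 change of both lines (a symbol, at least 10 CPM, no overlap), the 8 each way with the largest CPM difference (at least 4-fold, no overlap), up to 4 agreed members each way per list, and any pluripotency, trophectoderm or primitive endoderm gene. Not all are printed, and 4 genes are not reported here. Alternatives were DESeq2 1.42.0 as the test or for size factors, upper-quartile scaling, other low-count filters, a threshold on the fold, halved counts, all 39 libraries, single ICM stages or all 5, a replicate block and leaving out each library. After seeing the data 5 were added, namely genes with a known span, scaling within span bins, libraries with columns named L1 and L2 only, ICM libraries alone and limma 3.58.1 with a weight per group. No genome was at hand, so no sequence is printed.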

Additional observations from a re-analysis of the deposited data

Results flagged for a closer look

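MYH9 differed between the naive lines against the same ICM libraries, higher in DSY-c2 and lower in N40. The difference of DSY-c2 minus N40 was 2.91 on the log2 scale (adjusted p = 0.00051 by edgeR's quasi-likelihood test). Another 4 genes with no symbol in the reference table were called in opposite directions and passed the test of the difference itself, ENSCJAG00000008439 at 2.89, ENSCJAG00000010567 at -6.54 and a pair of others at 5.79 and 6.91. The remaining such gene did not pass that test (adjusted p = 0.076, edgeR's quasi-likelihood test). Naive against ICM and primed against epiblast differed for 7122 genes by the test of the difference between them.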

How the results depend on the processing

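No gene of the agreed set was called in the opposite direction under any alternative. A threshold of 2-fold gave 3598 calls in DSY-c2, 3534 in N40, 4342 for their mean and 2708 agreed genes (1864 naive-higher, 844 ICM-higher). Fewer genes entered the fit on genes with a span, which called 4468, 4427 and 5319 with 3623 agreed (2033 and 1590), and scaling within span bins called 4179, 4286 and 5123 of them with 3403 agreed (1932 and 1471). With L1 and L2 columns only, which left 1 DSY-c2 naive library, assumed to vary like the other groups, DSY-c2 had 1932 calls, the mean 5269 and 1857 genes were agreed (1283 and 574). Leaving out 1 library at a time gave 4367 to 6478 agreed genes. For hatched against hatching ICM, 63 genes became 3 to 674 without 1 library (lowest without N40 replicate 3, highest without hatched replicate 3), 1334 with DESeq2, and 0 with the ICM libraries alone or with group weights in limma, and the cause was not tested. SLC7A11, agreed at 3.97, lost its agreement in 9 of 12 fits that left out a library, among them the fit without hatched replicate 2. These 12 fits gave 3.69 to 5.49. Against the hatched ICM alone SLC7A11 was at -0.51, and the cause was not tested. RPL30 was not agreed against the hatched ICM alone, nor NYAP1 against the hatching ICM alone.

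Replicate numbers did not pair the samples. Deviations of same-numbered libraries correlated at -0.39 to 0.383 (18 pairs) and of other pairs at -0.496 to 0.481 (36 pairs). With a replicate block, 5184 genes were agreed (3126 naive-higher, 2058 ICM-higher), of which 3014 and 2046 were among those without the block, and hatched against hatching called 3. The median over all genes was 0.11 and lay between 0.00 and 0.40 over the alternatives, the highest without a low-count filter and with limma group weights. The ICM libraries spread more widely than the naive libraries, and differences of genes with few ICM counts have wide intervals.

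List counts moved too. Without hatched replicate 1, naive-higher and ICM-higher members were 5 and 4 of the G1 to S list, 3 and 3 of mitosis, 5 and 1 of YAP response, 1 and 4 of oxidative stress, 1 and 3 of hypoxia, 4 and 6 of ribosomal proteins, 4 and 5 of the respiratory chain and 0 and 3 of NODAL and BMP response. From one scaling on genes with a span to scaling within span bins, they went from 0 and 1 to 0 and 3 for trophectoderm, 5 and 3 to 4 and 2 for epithelial junctions, 3 and 3 to 4 and 1 for mitosis, 4 and 6 to 4 and 4 for G1 to S, 5 and 2 to 6 and 2 for glycolysis, 3 and 6 to 3 and 4 for the respiratory chain, 7 and 5 to 7 and 7 for extracellular matrix, 5 and 1 to 4 and 1 for YAP response, 1 and 4 to 0 and 3 for hypoxia, 1 and 3 to 2 and 4 for oxidative stress and 3 and 1 to 3 and 0 for imprinted genes.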
